A study of Mus musculus with 4 samples.

Results

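The 33 genes described here are genes of the oocyte and of the machinery that removes its stored RNA. They were taken by gene name. All 33 names were found among the 24411 genes of the deposited tables, and 32 had a count above 0 in at least 1 library. The samples were mouse morulae of the ICR strain, an outbred stock, made by in vitro fertilization. They were electroporated at the 1-cell stage, 3 hours after insemination (3 hpi), and cultured in KSOM with bovine serum albumin to 72 hpi. The knockdown embryos received siRNA against Pwp1 (siPwp1, 2 libraries), and the control embryos received control siRNA (siControl, 2 libraries), with 10 embryos pooled per library. The whole pooled embryo was sampled, so a small amount of a transcript in every embryo and a large amount in 1 of them cannot be told apart, nor can fewer cells of a type and less RNA per cell.

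A mouse oocyte stops transcribing when it is fully grown and lives on stored messenger RNA. Most of that RNA is removed between meiotic maturation and the first cleavages, first by maternal factors and then with the help of the newly active embryonic genome. Removal begins with loss of the poly(A) tail by the CCR4-NOT deadenylase, which adaptor proteins such as Btg4 and Zfp36l2 bring to its targets. The libraries were made from polyadenylated RNA, per the labels, so a transcript that has lost its tail is poorly captured. No oocyte library was analysed here, so the share of the starting RNA that is left cannot be given, and stored RNA and RNA newly made by the embryo cannot be told apart. The values below are what was present at 72 hpi.

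Total expected counts were 48765229 and 30356988 in siPwp1 replicates 1 and 2, and 28981358 and 44985949 in siControl replicates 1 and 2. Pwp1, the targeted gene, stood at 16.1 and 16.9 TPM in siPwp1, against 91.4 and 167.1 TPM in siControl (log2 fold change -2.97, adjusted p = 0.22 with edgeR and 1.47e-12 with DESeq2). TPM is a level scaled to transcript length and to the library. Of 13 morula markers chosen to check the stage, all had a count above 0 in every library, but their levels varied widely. Nanog was at 110.8 and 155.3 TPM in siPwp1 and 229.8 and 165.3 TPM in siControl. Sox2 was at 0.34 and 0.11 TPM in siPwp1 and 3.66 and 0.10 TPM in siControl. Cdx2 was at 3.10 and 0.50 TPM in siPwp1 and 8.04 and 1.21 TPM in siControl. Cumulus and granulosa cells surround an ovulated egg. Of 15 markers of these cells, Inhba, Cyp19a1, Cyp11a1, Ptx3 and Pgr were at 0 in all 4 libraries. Amh, Fshr, Lhcgr, Inha, Foxl2, Has2, Tnfaip6 and Ptgs2 reached at most 0.11 TPM. The 15 markers summed to 7.18 and 12.1 TPM in siPwp1 and 3.82 and 6.89 TPM in siControl. Most of it was Amhr2, with 6.83 and 11.9 TPM in siPwp1 and 3.06 and 6.53 TPM in siControl. Star was at 0.20 and 0.17 TPM in siPwp1 and 0.56 and 0.24 TPM in siControl. The 6 sperm markers summed to 3.14 and 0.91 TPM in siPwp1 and to 2.97 and 0.0 TPM in siControl.

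Of the 33 genes, 16 averaged under 1 TPM in both groups, and Cnot7, Ythdf2, Omt2b and Zfp36l2 averaged 10 TPM or more over the 4 libraries. Cnot7, Cnot6l, Ythdf2 and Zfp36l2 are RNA decay genes used by many cell types, and together they made 139.0 and 222.7 TPM in siPwp1 and 146.8 and 200.2 TPM in siControl. The other 29 genes together made 71.6 and 132.7 TPM in siPwp1, against 32.0 and 75.4 TPM in siControl, or 0.00716% and 0.0133% of all transcripts in siPwp1 and 0.0032% and 0.00754% in siControl. Their median gene averaged 0.632 TPM, beside a median of 1.23 TPM over the 18625 detected genes. The groups overlapped in this sum, and in a two-sided exact permutation test of 2 libraries against 2 it gave p = 0.667. With 2 libraries a group an exact permutation test cannot go below p = 0.333. Omt2b alone made 49.8% and 40.9% of the sum in siPwp1 and 36.1% and 29.0% in siControl.

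**Figure D1:**
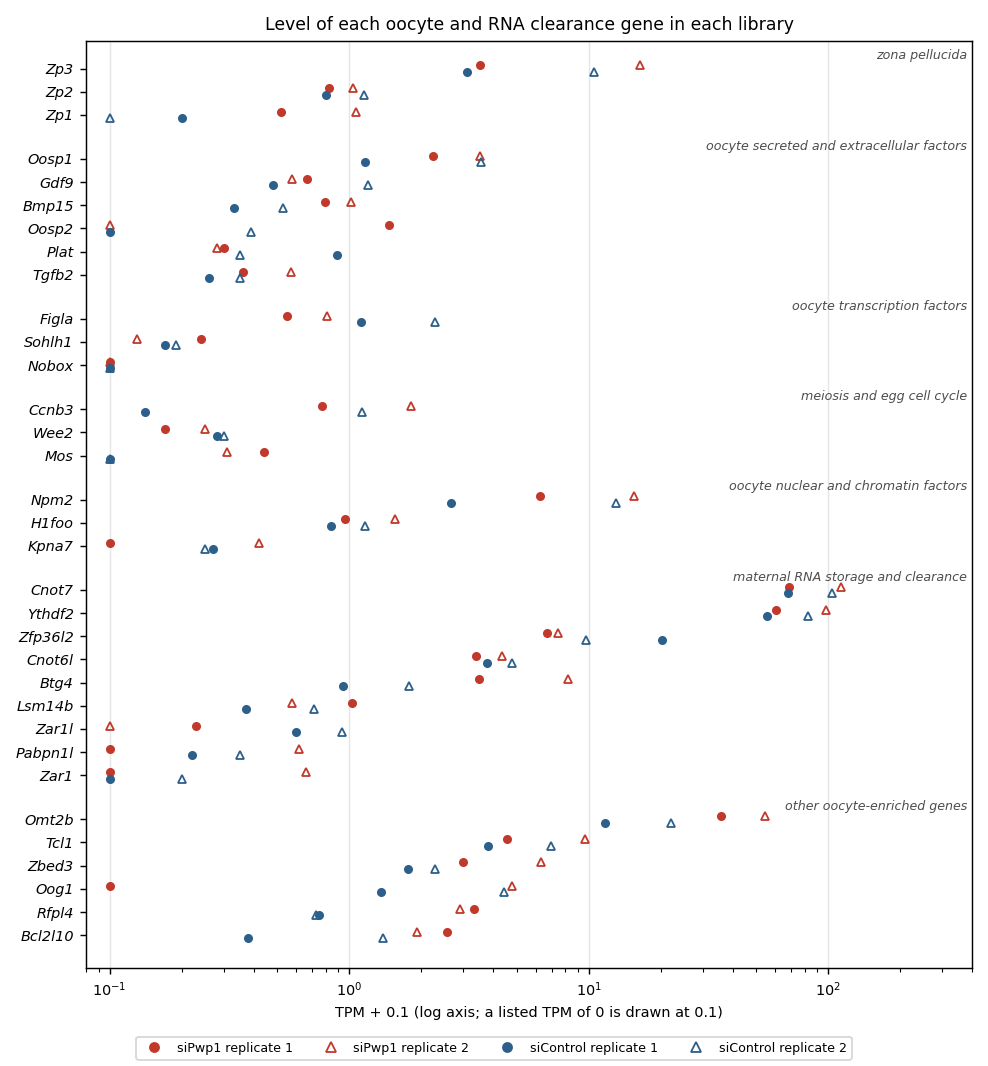
TPM plus 0.1 (horizontal log axis) of each of the 33 genes, grouped by role, in each library; red marks siPwp1 and blue siControl, filled circles replicate 1 and open triangles replicate 2. Cnot7 and Ythdf2 lie farthest to the right, and Nobox is at 0 in all 4 libraries.

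**Figure D2:**
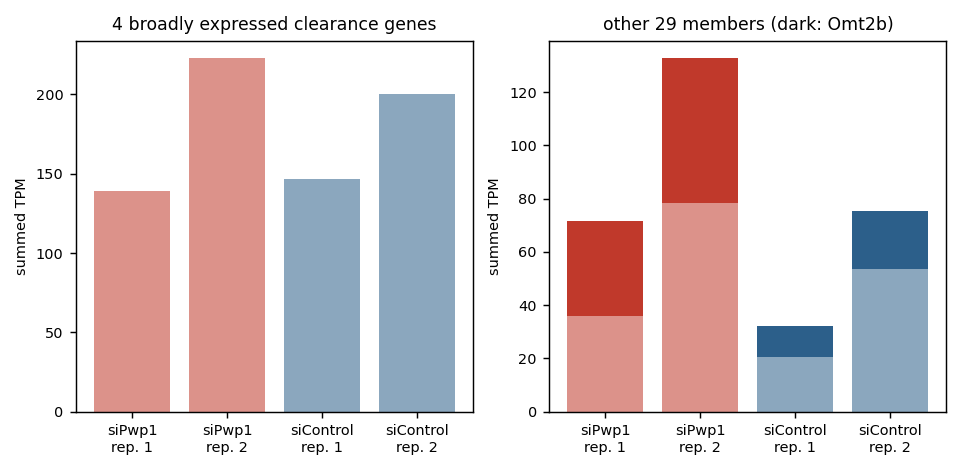
Summed TPM (vertical axis, from 0) in each library for the 4 broadly expressed clearance genes on the left and the other 29 genes on the right, with the part from Omt2b dark. The right-hand sums are 71.6 and 132.7 TPM in siPwp1 and 32.0 and 75.4 TPM in siControl.

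The comparison of siPwp1 with siControl asks whether oocyte and clearance transcripts differ at 72 hpi when Pwp1 is targeted. Among the 27 genes that passed the filter on low counts, 0 passed edgeR's quasi-likelihood test after Benjamini-Hochberg adjustment over all 13585 genes tested (adjusted p = 0.9998 for each). Over all genes the share called was 0.0%, and the targeted gene Pwp1 itself did not pass in edgeR. With 2 libraries a group, 0 calls therefore do not show that these genes were unchanged. At an unadjusted p under 0.05, 3 of the 27 were higher in siPwp1 (Btg4, Rfpl4 and Omt2b) and 1 was lower (Zfp36l2), where 1.84% and 0.824% of all genes tested were higher and lower. DESeq2 called 0 of the 27, with 0.309% of all genes called higher and 0.0147% called lower. Both siPwp1 libraries lay above both siControl libraries for 8 of the 27 genes and below them for 5 on CPM, counts scaled to library size after TMM normalization. Over all genes tested these shares were 14.7% and 14.1%. A difference of 2-fold or more on top of this was seen in 7 genes that were higher and 4 that were lower in siPwp1, where the shares over all genes tested were 6.31% and 2.38%. These shares are not like for like, since many of these genes are low. The median of the 33, with the 6 that were not tested, was 0.863 TPM, and that of all genes tested 3.98 TPM. The gap is smaller for the 27 that passed the filter. Fold changes are less precise at low counts. The 33 were also chosen with earlier results of these data known, and an enrichment was not tested. The log2 fold change was above 0 in 17 of the 27 and in 49.9% of all genes tested. The median log2 fold change of the 27 was 0.33, and that of all genes tested was -0.00104. The filter keeps a low gene where it is high in a group, so all these counts and the median describe those that passed and not the 33. Zp1 passed only through its siPwp1 libraries and Zar1l only through its siControl libraries, and both are in these counts. Without siPwp1 replicate 2 the median was -0.23 and without siControl replicate 1 it was -0.02, while it was 0.72 without siPwp1 replicate 1 and 0.83 without siControl replicate 2.

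**Figure D3:**
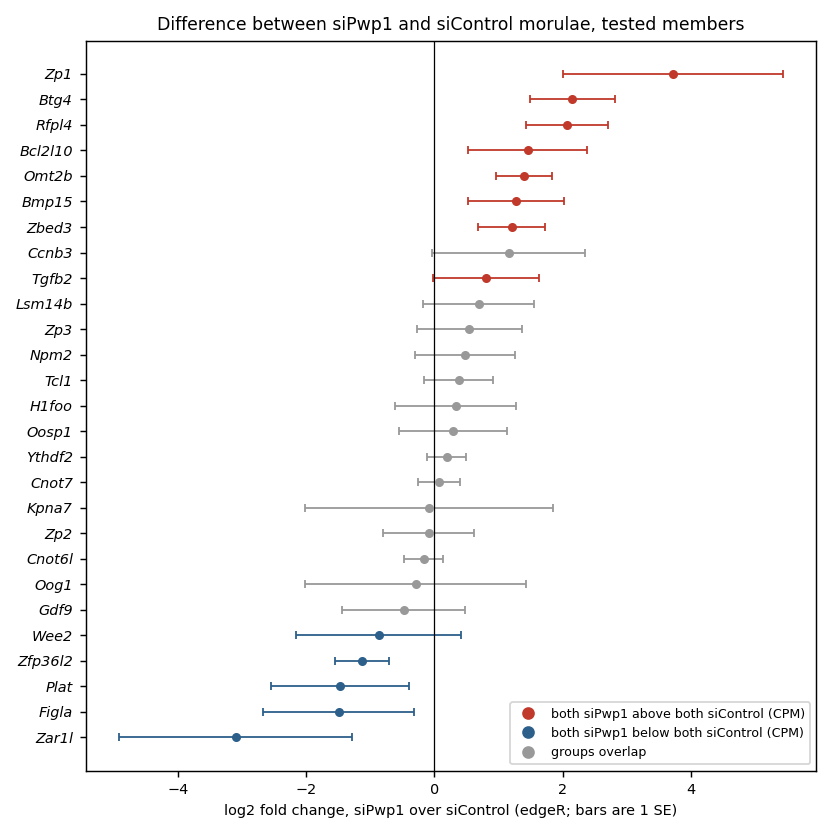
Log2 fold change of siPwp1 over siControl (horizontal axis; bars are 1 SE) for the 27 genes tested with edgeR, in order of size. Red marks the 8 genes with both siPwp1 libraries above both siControl libraries, blue the 5 with both below, and grey the 14 whose groups overlap.

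Omt2b, Btg4 and Rfpl4 are shown with their upstream sequence because they had the 3 smallest unadjusted p values on the higher side, and Zp3 because it was the most abundant zona gene. These 4 were picked after their values were seen. Each line gives 210 bases of the RefSeq promoter table (GRCm38.p6), 5′ to 3′ on the gene's strand, from 250 to 41 bases before the annotated start. The bases next to the start are left out because an annotated exon reaches into them in some of these genes. The windows of Omt2b and Btg4 lie inside the gene spans of GENCODE given further on, outside any annotated exon, since RefSeq places the start of these genes further downstream. Capitals mark E-boxes, matches to CANNTG, the element bound by basic helix-loop-helix factors such as Figla.
Omt2b, plus strand, chr9:78327780-78327989: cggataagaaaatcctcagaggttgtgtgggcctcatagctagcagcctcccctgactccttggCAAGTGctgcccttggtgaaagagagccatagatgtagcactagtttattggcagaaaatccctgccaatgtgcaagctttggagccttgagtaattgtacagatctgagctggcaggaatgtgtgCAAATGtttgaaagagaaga
Btg4, plus strand, chr9:51115751-51115960: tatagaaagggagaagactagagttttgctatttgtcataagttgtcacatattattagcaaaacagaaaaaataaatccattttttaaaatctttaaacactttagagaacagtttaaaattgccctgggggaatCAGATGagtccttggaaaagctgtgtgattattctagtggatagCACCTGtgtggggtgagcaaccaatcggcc
Rfpl4, minus strand, chr7:5116952-5117161: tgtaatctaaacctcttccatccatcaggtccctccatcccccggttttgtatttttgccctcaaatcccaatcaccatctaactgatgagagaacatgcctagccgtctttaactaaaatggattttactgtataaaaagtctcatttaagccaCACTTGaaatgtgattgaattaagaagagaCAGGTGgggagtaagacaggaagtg
Zp3, plus strand, chr5:135979855-135980064: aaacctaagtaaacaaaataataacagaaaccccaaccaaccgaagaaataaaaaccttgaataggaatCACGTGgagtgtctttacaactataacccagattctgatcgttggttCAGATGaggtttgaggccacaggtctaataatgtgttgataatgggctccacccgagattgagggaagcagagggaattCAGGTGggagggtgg
CANNTG reads the same on both strands. Zp3 has 3 E-boxes, which start 181, 134 and 55 bases before the annotated start, and the other 3 promoters have 2 each. At least 2 matches are found in 31.8%, and at least 3 in 12.2%, of 32851 mouse promoter entries over the same 250 bases. Of the 33 genes, 24 had an entry (28 entries in all), and 26 of the 28 held at least 1 match, where 66.2% of all promoters did. Cnot6l and Zbed3 had several entries each, and those of Cnot6l overlapped in part, so the entries are not independent. An enrichment of either motif was not tested. Omt2b also holds the letters TAATTG, the core bound by the homeobox factor Nobox, searched on both strands, 94 bases before the start, not overlapping an E-box. That motif is in 3 of the 28 entries and in 7.17% of all promoters. A match is a run of letters and not a measured binding site.

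The zona pellucida genes encode the glycoprotein coat of the egg, which still encloses the embryo at this stage. Zp3, a coat protein gene, was at 3.43 and 16.3 TPM in siPwp1, against 3.00 and 10.4 TPM in siControl. The groups overlapped, and the 2 replicates of each group were farther apart than the group means of 9.89 ± 9.13 and 6.70 ± 5.23 TPM (SD, n = 2 each). Zp2 was at 0.72 and 0.94 TPM in siPwp1 and 0.70 and 1.05 TPM in siControl. Zp1, which cross-links the filaments of the coat, had 35 and 46 counts in siPwp1, against 5 and 0 counts in siControl. Its groups did not overlap, and its log2 fold change was 3.72 with an SE of 1.72. Zp1 passed the filter on low counts through siPwp1 alone, which favours such a difference. With 5 and 0 siControl counts this fitted value is imprecise: leaving out siControl replicate 2 gave 2.64, and leaving out siControl replicate 1 gave 8.53.

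The secreted factors of the oocyte were all low. Gdf9 and Bmp15, growth factors of the TGF-beta family by which the oocyte signals to its follicle, had 21 to 44 and 74 to 96 counts in siPwp1 and 17 to 70 and 19 to 50 counts in siControl. Bmp15 lay higher in both siPwp1 libraries, at 0.69 and 0.92 TPM, against 0.23 and 0.43 TPM in siControl (log2 fold change 1.27, SE 0.749). Oosp1, an oocyte-secreted protein gene, was the highest of these, at 2.14 and 3.41 TPM in siPwp1 and 1.06 and 3.44 TPM in siControl. Its relative Oosp2 had 28 and 0 counts in siPwp1 and 0 and 5 in siControl and was not tested. Tgfb2, another TGF-beta family ligand, stayed at or under 0.47 TPM in every library. Both its siPwp1 libraries lay higher (log2 fold change 0.80, SE 0.825). Plat, tissue plasminogen activator, has a stored message known for being translated during oocyte maturation. It was at 0.20 and 0.18 TPM in siPwp1, against 0.79 and 0.25 TPM in siControl. Both siPwp1 libraries lay lower (log2 fold change -1.47, SE 1.08), and leaving out siControl replicate 1 gave -0.35. An exon of Tgfb2 overlaps a gene on the other strand, and the strand setting of the counting is not given in the sources used here.

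Transcription factors of the oocyte were barely detected. Nobox had no count in any library, where 3 counts, the limit a count of 0 allows, correspond to 0.0594 to 0.104 CPM for counting error only. Sohlh1, a basic helix-loop-helix factor of early follicles, had 7 and 1 counts in siPwp1 and 2 and 4 in siControl. Figla, which activates the zona genes in oocytes, had 11 and 10 counts in siPwp1, against 15 and 45 counts in siControl. Figla was lower in both siPwp1 libraries, at 0.45 and 0.71 TPM, against 1.02 and 2.19 TPM in siControl (log2 fold change -1.49, SE 1.18).

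Genes of meiosis and of the egg cell cycle were likewise low. Mos, the kinase that holds the egg in its second meiotic metaphase, had 20 and 7 counts in siPwp1 and 0 and 0 in siControl. Set against 3 counts per siControl library, the observed mean CPM was 3.65-fold higher in siPwp1. That value leaves out the counting error of the few siPwp1 counts, so it is not a lower limit. Mos did not pass the filter and was not tested. Wee2, the oocyte kinase that maintains prophase arrest, reached 0.07 and 0.15 TPM in siPwp1 and 0.18 and 0.20 TPM in siControl. Both its siPwp1 libraries lay lower (log2 fold change -0.87, SE 1.29). Ccnb3, a cyclin of the first meiotic division, had 144 and 210 counts in siPwp1, against 5 and 183 counts in siControl. The groups overlapped, since siControl replicate 2, at 1.03 TPM, lay between the siPwp1 libraries at 0.67 and 1.71 TPM. Without that library edgeR gave Ccnb3 an adjusted p = 0.027, and over all alternatives its adjusted p ran from 0.027 to 1.0.

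Among nuclear factors, Npm2, the oocyte nucleoplasmin that acts on egg chromatin and nucleoli, was at 6.16 and 15.4 TPM in siPwp1 and 2.55 and 12.9 TPM in siControl. H1foo, the linker histone of oocytes, was at 0.86 and 1.46 TPM in siPwp1 and 0.74 and 1.06 TPM in siControl. Kpna7, a nuclear import receptor of the egg, had 0 and 18 counts in siPwp1 and 10 and 12 in siControl. For all 3 the groups overlapped, and the fitted log2 fold changes were 0.48, 0.33 and -0.08 with SE of 0.777, 0.942 and 1.94. Npm2 shares exon sequence positions with Xpo7 on the same strand and Kpna7 with Arpc1a on the other, so their levels are uncertain.

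The clearance genes fall into those used by many cells and those known mainly from oocytes. Cnot7, a deadenylase subunit of CCR4-NOT, was at 68.6 and 113.4 TPM in siPwp1 and 67.7 and 103.6 TPM in siControl, higher than 92.1% of detected genes by its mean. Its log2 fold change was 0.08 with an SE of 0.322. Ythdf2, which binds RNA that carries N6-methyladenosine and is needed in mouse oocytes for normal transcript dosage, was at 60.5 and 97.8 TPM in siPwp1 and 55.4 and 82.3 TPM in siControl. Cnot6l, the deadenylase subunit known for its role in mouse oocyte maturation, was at 3.28 and 4.25 TPM in siPwp1 and 3.68 and 4.68 TPM in siControl. In each of these 3 genes the groups overlapped and replicate 2 was above replicate 1. Cnot7 overlaps an exon of Zdhhc2 on the other strand.

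Zfp36l2, which binds AU-rich elements and brings CCR4-NOT to them, was at 6.63 and 7.32 TPM in siPwp1, against 20.1 and 9.68 TPM in siControl. Both siPwp1 libraries lay below both siControl libraries, and the siControl libraries differed from each other by more than the group means of 6.98 ± 0.488 and 14.9 ± 7.35 TPM (SD, n = 2 each). edgeR fitted -1.13 (SE 0.423) as the log2 fold change and gave an adjusted p = 0.9998; DESeq2 gave an adjusted p = 0.86. Leaving out siControl replicate 1 gave a log2 fold change of -0.43. Leaving out siControl replicate 2 gave -1.60 with an adjusted p = 0.0475 in edgeR, and over all alternatives the adjusted p ran from 0.0475 to 1.0. The gene lies on chromosome 17 from 84183931 to 84187947 (GRCm38) and overlaps an annotated gene on the other strand.

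Btg4, the adaptor that recruits CCR4-NOT during oocyte maturation and is needed for maternal RNA decay in the mouse, was at 3.37 and 8.06 TPM in siPwp1, against 0.84 and 1.68 TPM in siControl. The counts behind these were 176 and 241 in siPwp1 and 26 and 73 in siControl, and the groups did not overlap. Btg4 lies on chromosome 9 from 51060901 to 51119875. edgeR fitted a log2 fold change of 2.15 (SE 0.667) and gave an adjusted p = 0.9998; DESeq2 gave an adjusted p = 0.399. With a library left out the log2 fold change ran from 1.44 (without siPwp1 replicate 2) to 2.66 (without siControl replicate 2). Pabpn1l, the poly(A)-binding partner of Btg4 in mouse oocytes, did not share that level: it had 0 and 13 counts in siPwp1 and 3 and 9 in siControl. Zar1 and Zar1l bind and store maternal messages. Zar1 had 0 and 16 counts in siPwp1 and 0 and 4 in siControl. Zar1l had 4 and 0 counts in siPwp1, against 9 and 21 in siControl, so both siPwp1 libraries lay lower. Its log2 fold change of -3.10 (SE 1.82) rests on few counts and ran from -6.78 to -2.27 with a library left out. Zar1l passed the filter through siControl alone, which favours such a difference. Lsm14b, a component of oocyte RNA storage granules, was at 0.93 and 0.48 TPM in siPwp1 and 0.27 and 0.61 TPM in siControl.

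Outside the broadly used clearance genes, the 6 remaining oocyte-enriched genes had the highest summed level of the role groups in every library. Their summed level was 48.7 and 79.4 TPM in siPwp1, against 19.1 and 37.2 TPM in siControl. The groups did not overlap, and the exact permutation test gave p = 0.333, the smallest it can give. Omt2b alone made 73.2% and 68.4% of this sum in siPwp1 and 60.5% and 58.9% in siControl. The oocyte transcription factors summed to 0.59 and 0.74 TPM in siPwp1, against 1.09 and 2.28 TPM in siControl, lower without overlap. The exact permutation test gave the same value there. In every other role group the summed levels of siPwp1 and siControl overlapped. Omt2b, a gene named from oocyte maturation with no function known here, was at 35.6 and 54.3 TPM in siPwp1, against 11.6 and 21.9 TPM in siControl. edgeR fitted a log2 fold change of 1.40 (SE 0.439) and gave an adjusted p = 0.9998; DESeq2 gave an adjusted p = 0.378. Omt2b lies on chromosome 9 from 78327589 to 78329620. Its expected counts were fractional, as RSEM gives where reads match several genes, and among the 33 genes this was so only for Omt2b and Oog1. Summed with its similarly named relative Omt2a, chosen after the values were seen, the level was 42.3 and 62.5 TPM in siPwp1 and 14.6 and 27.2 TPM in siControl, again without overlap.

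Rfpl4, a RING finger protein gene of oocytes on chromosome 7 from 5109787 to 5116950, was at 3.22 and 2.79 TPM in siPwp1, against 0.65 and 0.63 TPM in siControl. Here the replicates of each group lay close together, and the groups did not overlap. edgeR fitted 2.07 (SE 0.637) as the log2 fold change and gave an adjusted p = 0.9998; DESeq2 gave an adjusted p = 0.467. Bcl2l10, a BCL2 family gene abundant in oocytes, was at 2.45 and 1.82 TPM in siPwp1 and 0.28 and 1.28 TPM in siControl. Zbed3, whose protein is part of the subcortical maternal complex of the egg, was at 2.90 and 6.25 TPM in siPwp1 and 1.66 and 2.18 TPM in siControl. Both lay higher in both siPwp1 libraries without passing the test, with log2 fold changes of 1.46 (SE 0.928) and 1.21 (SE 0.526). That of Bcl2l10 was 0.79 when siControl replicate 1 was left out and 2.83 when siControl replicate 2 was, and that of Zbed3 was 0.60 without siPwp1 replicate 2.

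Tcl1 and Oog1 behaved otherwise. Tcl1, a coactivator of the AKT kinase in eggs and early embryos, was at 4.47 and 9.57 TPM in siPwp1 and 3.70 and 6.86 TPM in siControl, with overlapping groups. Oog1, one of a family of oogenesin genes, was listed at 0 and 4.67 TPM in siPwp1 and 1.26 and 4.34 TPM in siControl. Its related gene Oog3, added after the values were seen, was at 2.78 and 6.14 TPM in siPwp1 and 1.37 and 2.29 TPM in siControl. Without siPwp1 replicate 2, which leaves the library with a count of 0, edgeR gave Oog1 an adjusted p = 6.84e-05, and over all alternatives it ran from 6.84e-05 to 1.0.

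Replicate number went with the level of many of these genes. Both replicates 2 lay above both replicates 1 in 11 of the 27 genes and below them in 0, on CPM, where the shares over all genes tested were 24.7% and 25.7%. The 11 were Zp2, Zp3, Oosp1, Ccnb3, H1foo, Npm2, Cnot6l, Cnot7, Ythdf2, Oog1 and Tcl1. The median log2 difference of replicate 2 minus replicate 1, on CPM plus 1, was 0.37 in siPwp1 and 0.41 in siControl over the 27, against 0.0 and -0.02 over all genes. The same scale gave a median difference of siPwp1 minus siControl of 0.18 within replicate 1 and 0.24 within replicate 2. edgeR called 0 of the 27 between the replicate numbers, and 0.0368% of all genes. Among the 13 morula markers, both replicates 2 lay below both replicates 1 on CPM for 6 (Sox2, Cdx2, Gata3, Krt8, Krt18 and Cdh1), above them for 2 (Dppa3 and Tead4), and neither for the other 5. Krt8, a keratin gene of the trophectoderm, was at 76.4 and 14.6 TPM in siPwp1 replicates 1 and 2 and at 122.7 and 10.7 TPM in siControl replicates 1 and 2. Gata3, a trophectoderm transcription factor gene, was at 16.5 and 6.04 TPM in siPwp1 and 42.1 and 8.15 TPM in siControl. The part of embryo stage in the oocyte gene levels was not tested.

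**Figure D4:**
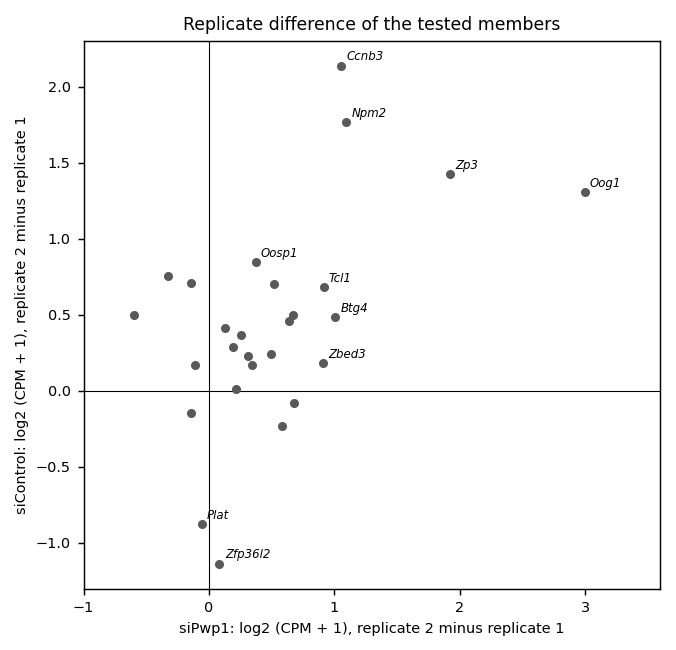
Difference of replicate 2 minus replicate 1 in log2(CPM + 1) for the 27 tested genes, in siPwp1 (horizontal axis) and in siControl (vertical axis), with the larger ones named. The 11 genes whose replicates 2 both lay above both replicates 1, among them Zp3, Npm2 and Tcl1, sit to the upper right, above 0 on both axes.

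Many of these genes have a relative that most cells use, and within each library the relative was usually the more abundant, per length. Ccnb3 was at 0.000704 and 0.00102 times the TPM of the mitotic cyclin Ccnb1 in siPwp1 and 6.46e-05 and 0.000737 times in siControl. Npm2 was at 0.00115 and 0.00294 times the level of Npm1 in siPwp1 and 0.000401 and 0.00259 times in siControl. Lsm14b, Wee2 and Pabpn1l lay below Lsm14a, Wee1 and Pabpn1 in all 4 libraries, and so did H1foo below the linker histone H1f0 and Kpna7 below Kpna2.

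In the deadenylase itself, Cnot6l was at 0.19 and 0.257 times Cnot6 in siPwp1 and 0.166 and 0.263 times in siControl. Cnot7 was at 0.52 and 0.63 times Cnot8 in siPwp1 and 0.737 and 0.66 times in siControl. Both siPwp1 ratios of Cnot7 to Cnot8 were under both siControl ratios, as were those of Wee2 to Wee1. Those of Btg4 to Btg3 were above. Leaving out Zar1l and Zar1, the ratios of all the other pairs overlapped between the groups. No share over other gene pairs was computed. The Wee2 ratios rest on 9 and 11 counts in siPwp1 and 14 and 22 in siControl. No ratio was tested. Btg4 was at 0.0628 and 0.165 times Btg3 in siPwp1, against 0.0287 and 0.0208 times in siControl, so it remained the lesser of that pair in every library. The exceptions were Zfp36l2, at 7.71 and 7.11 times Zfp36l1 in siPwp1 and 11.0 and 6.82 times in siControl, and Ythdf2, at 4.87 and 7.86 times Ythdf3 in siPwp1 and 3.0 and 5.33 times in siControl. Zar1l and Zar1 were both at or under 0.83 TPM.

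**Figure D5:**
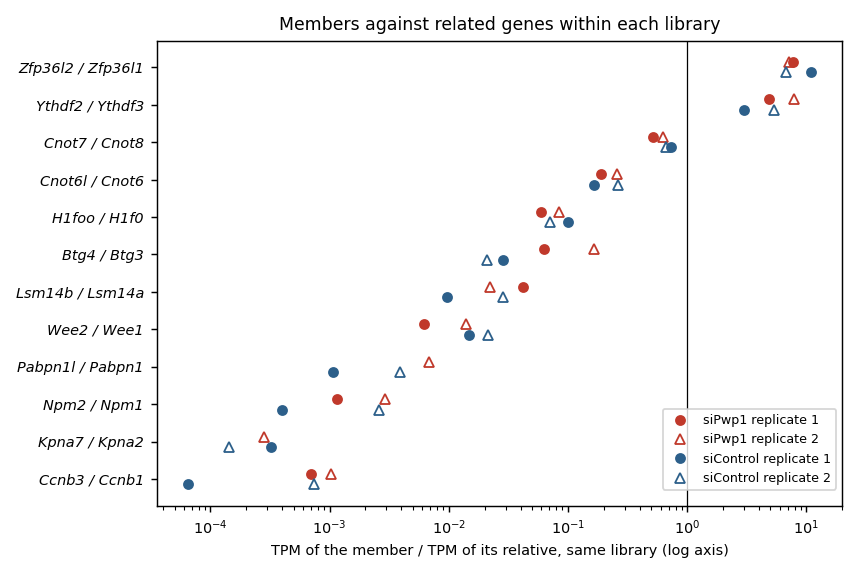
Ratio of the TPM of each member to that of a related gene in the same library (horizontal log axis; the line is at 1), with libraries marked as siPwp1 in red and siControl in blue, circles for replicate 1 and triangles for replicate 2. Libraries with a member at 0 and the pair Zar1l and Zar1 are not drawn; Zfp36l2 and Ythdf2 alone lie right of the line.

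The other genes of RNA decay and storage gave no call, in an edgeR fit that called 0.0% of all genes and did not call Pwp1. Of the 16 other CCR4-NOT and BTG/TOB genes tested, 0 passed edgeR, with a median log2 fold change of -0.05, and 0 had an unadjusted p under 0.05. The smallest p were those of Btg1, an antiproliferative adaptor at 22.4 and 62.0 TPM in siPwp1 and 13.0 and 34.5 TPM in siControl, of Cnot8, at 132.0 and 180.1 TPM in siPwp1 and 91.8 and 156.9 TPM in siControl, and of Pan2, a subunit of another deadenylase, at 3.24 and 2.63 TPM in siPwp1 and 4.63 and 3.12 TPM in siControl. Of 18 decapping and P-body genes, 0 passed and the median was -0.06. Lsm2, of the ring that marks RNA for decapping, was at 215.0 and 310.7 TPM in siPwp1 and 152.0 and 219.0 TPM in siControl, with a log2 fold change of 0.48. Patl2, an oocyte RNA-binding protein gene, was at 0.45 and 0.82 TPM in siPwp1 and 2.17 and 0.73 TPM in siControl, and Lsm5 at 1363 and 1159 TPM in siPwp1 and 1721 and 1444 TPM in siControl.

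Among the enzymes that add uridines to short tails and the nuclease that degrades the product, Zcchc11, Zcchc6 and Dis3l2, 0 of 3 passed and the median log2 fold change was -0.29. Of 15 genes of tail length and translation control 0 passed, with a median of -0.06, and the poly(A)-binding protein genes Pabpc4, Pabpc1 and Pabpn1 had the smallest unadjusted p. Pabpc4 was at 139.3 and 151.0 TPM in siPwp1, against 191.6 and 168.3 TPM in siControl. Of 12 readers, writers and erasers of N6-methyladenosine 0 passed, with a median of -0.21. In both siPwp1 libraries 4 of them lay lower and 0 higher, where the shares over all genes tested were 14.1% and 14.7%. Of the 16 CCR4-NOT and BTG/TOB genes 1 lay lower and 2 higher, and of the 18 decapping and P-body genes 1 and 1. The 3 uridylation genes gave 0 and 0, and the 15 genes of tail length and translation control 2 and 0. Ythdf3, a relative of Ythdf2, was at 12.4 and 12.4 TPM in siPwp1 and 18.5 and 15.4 TPM in siControl, a log2 fold change of -0.46. Alkbh5, a demethylase gene, was at 4.78 and 3.41 TPM in siPwp1 and 7.12 and 5.04 TPM in siControl, a log2 fold change of -0.59. Igf2bp3, an RNA-binding protein gene, was at 4.79 and 4.18 TPM in siPwp1 and 9.17 and 4.14 TPM in siControl.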

How the data were processed

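RNA-seq libraries of siPwp1 and siControl morulae (2 each) were compared, grouped by sample title. The deposited files give, per the file headers, RSEM expected counts per gene, not normalized, and TPM, which the authors had already normalized per library. The submitters' processing notes name STAR 2.7.10, RSEM 1.3.3 and mm10. For annotation release, trimming and strand setting, nothing is stated in the sources used. Rounded expected counts went into edgeR 4.0.16 (R 4.3.3), quasi-likelihood F test, group as only term, TMM scaling and filterByExpr (minimum count 10). P-values are two-sided, adjusted by Benjamini-Hochberg over 13585 genes, with a threshold of 0.05. SE was taken as log2 fold change divided by the root of F. The fit was tested on simulated data. Nothing in the labels says that replicates came from separate cultures. Each p-value therefore reflects library-to-library spread alone, which may be technical. Levels come from TPM, overlap of groups from CPM. Alternatives were other filters, DESeq2 1.42.0 (size factors and Wald test), limma 3.58.1 on log2(TPM + 1) and log2(TPM + 0.1), a replicate block and leaving out each library. Members, role groups, other gene lists and relatives were chosen with earlier results of these data known. Genes averaging 1 TPM in either group were to be given per library, and 3 genes of each other list, by smallest p, were named. Gene positions and exon overlaps are from GENCODE M21 (GRCm38), promoters from RefSeq (GRCm38.p6).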

Additional observations from a re-analysis of the deposited data

How the results depend on the processing

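No member was called among the 27 tested with DESeq2 size factors, with the Wald test of DESeq2 or with limma at both pseudocounts. With no filter 32 members were tested and 0 called. A filter of 5 CPM in 2 libraries left 10 members, of which 0 were called, so the others were not tested under it. Over all genes edgeR called 0 genes higher and 0 lower. With no filter it called 99 and 7, and DESeq2 called 42 and 2. With 1 library left out, 5 to 130 genes were called higher and 1 to 18 lower, and 0 to 2 members were called (Oog1 without siPwp1 replicate 2, Ccnb3 and Zfp36l2 without siControl replicate 2). There, the lone library of a group takes its spread from the other group. The median log2 fold change of the members then ran from -0.23 to 0.83, and the log2 ratio of summed TPM, 0.32 with all libraries, from -0.11 to 0.66. The cause of these shifts was not tested. The replicate numbers were shared by the groups, and the labels do not say that they pair samples. Same-numbered libraries deviated together across genes (r = 0.317). With the number as a replicate block edgeR called 71 genes higher and 9 lower, and 0 members, with adjusted p from 0.0899 (Omt2b).

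Of 280 log2 fold changes of single members under alternatives, 19 changed sign, all with a library left out, in 11 members. With a library left out they ran from -0.298 to 0.161 for Zp2, -0.92 to 1.61 for Zp3, -1.02 to 0.41 for Gdf9, -0.29 to 1.29 for Oosp1, -0.0533 to 0.645 for H1foo, -0.28 to 1.98 for Npm2, -6.68 to 0.94 for Kpna7, -0.29 to 0.37 for Cnot7, -0.16 to 0.48 for Ythdf2, -10.4 to 0.77 for Oog1 and -0.23 to 0.83 for Tcl1. Members at a few counts per library are limited by depth.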
